A study of Mus musculus with 8 samples.

Results

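Thymic mural cells, the cells that wrap blood vessels, were picked out of single-cell RNA profiles of sorted thymic stroma by the counts of 6 of their own genes, and 245 of 9953 cells met the rule. A member held at least 3 of Rgs5, Notch3, Kcnj8, Myh11, Pdgfrb and Acta2, at least 3 unique molecules (UMIs, each an mRNA molecule counted once) of Rgs5, Notch3 and Myh11 together, at most 1 of the endothelial genes Pecam1, Cdh5, Kdr and Emcn, fewer UMIs of Epcam, Krt8, Krt18 and Krt5 than of the 6 mural genes, and no UMI of the fibroblast genes Pdgfra and Lum. The rule yielded 71 and 73 cells in the 1-week libraries and 34 and 67 in the 16-week libraries. For comparison, similar rules on other genes gave 1308 fibroblasts, 188 endothelial cells and 6614 epithelial cells, and 1598 cells entered no class.

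The cells came from untreated wild-type C57BL/6 mice at 1 week or 16 weeks of age. Per the study's methods, thymi were pooled within an age (6 at 1 week and 3 at 16 weeks), depleted of CD45-positive cells, and sorted as CD45-Ter119- cells at 70% EpCAM1-positive and 30% EpCAM1-negative, although the labels name the cell type as thymic epithelial cells. The cells of an age shared 1 tube and were loaded on 2 wells, each giving a library. The 2 libraries of an age are therefore wells of 1 pool: their spread covers capture and sequencing and not mice, and no test between ages could be made. Each cell carries an mRNA count for each gene and a count for each of 27 surface tags, antibodies (or, for SAV_PE, a stained lectin) whose DNA barcode was sequenced with the transcripts.

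Mural cells comprise pericytes and smooth muscle cells. Pericytes sit on capillaries inside the vessel's basement membrane, receive platelet-derived growth factor through Pdgfrb, and in many organs carry the potassium channel pair Kcnj8 and Abcc9. Smooth muscle cells surround arterioles, arteries and veins, hold Notch3 signalling in common with pericytes, and contract through smooth muscle actin (Acta2) and myosin (Myh11). In the thymus, vessels bring progenitors in and let mature T cells out, and the mural sheath is known as part of the niche that exit takes place in.

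The barcodes that reported the surface proteins on which these results turn are shown first, since each tag value below is a count of 1 of them. All have 15 bases and are printed in the orientation of the tag table.
CD9: tagcagtcactccta
CD200: tcaattccggtagtc
CD49a: ccattcatttgtggc
CD63: atccgacacgtatta
Podoplanin: gggcgatttagtgtg
Sca1: ttcctttcctacgca
CD31: gctgtagtatcatgt
CD146: ccttggataacatca

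Libraries held 1846 and 1430 cells at 1 week and 1939 and 4738 at 16 weeks, with 21281389 to 45480790 UMIs each. Mural cells had a median of 7048 to 9463 UMIs and 413 to 784 tag counts, against 151 to 242 tag counts in fibroblasts and 2733 to 4981 in epithelial cells. Mitochondrial transcripts made up 3.66% to 4.95% of mural UMIs. A doublet caller marked 5 of the 245 cells, 1 and 4 of them in the 16-week libraries, and they were kept. Across the libraries 15 cell barcodes occurred more than once, 1 of them in a mural cell, and none was mural in more than 1 library.

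The genes of the rule are given as a description, because they chose the cells. Rgs5, a regulator of G-protein signalling, stood at 9745 and 10184 CPM (a gene's UMIs per 1000000 UMIs, summed over the cells of a class) in the mural cells of the 1-week libraries and at 4906 and 5181 at 16 weeks (chr1:169655501-169695813, GRCm38 with GENCODE M21 for all gene positions). It was detected in 238 of the 245 cells, and its median was 75 and 79 UMIs a cell at 1 week and 8 and 24 at 16 weeks. Notch3, the mural Notch receptor (chr17:32120820-32166852), stood at 652 and 754 CPM at 1 week and at 480 and 548 at 16 weeks. Rgs5 and Notch3 were thus higher in both 1-week libraries than in either 16-week library, without reaching a 2-fold ratio.

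Kcnj8, the pore of a vascular ATP-sensitive potassium channel (chr6:142564837-142571614, minus strand), stood at 470 and 497 CPM at 1 week and at 147 and 132 at 16 weeks, and 103 of 245 cells held a UMI of it. Myh11, smooth muscle myosin heavy chain (chr16:14194535-14291372), stood at 1538 and 1308 CPM at 1 week and at 2055 and 1408 at 16 weeks, and 181 cells held it. Acta2 (chr19:34241090-34255590) stood at 3799 and 4034 against 7558 and 7133 CPM. The ages did not overlap for Kcnj8 or Acta2, and they overlapped for Myh11. Pdgfrb stood at 523 and 492 CPM at 1 week and at 365 and 312 at 16 weeks.

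The rule cut through a thin region at the lower side. Of the members, 10 held only 3 to 4 UMIs of Rgs5, Notch3 and Myh11 (all 10 at 16 weeks), and 8 cells that met every other criterion held exactly 2 and stayed out. The median member held 65 such UMIs, and 180 members held at least 30. The requirement of no Pdgfra or Lum UMI kept out 332 cells that met all else, 128 of which held at least 10 times as many UMIs of the 3 mural genes as of Pdgfra and Lum. Of the epithelial cells, 32.3% to 38.3% per library also held a Lum UMI. A stricter set of 216 cells (70 and 70 at 1 week, 24 and 52 at 16 weeks) held at least 2 UMIs of Rgs5, Notch3 and Myh11 per 1000, and is called the stricter set below. Of the 29 members outside it, 1 and 3 came from the 1-week libraries and 10 and 15 from the 16-week libraries. Rgs5, Notch3, Kcnj8 and Myh11 summed to 12405 and 12744 CPM at 1 week and to 7587 and 7269 at 16 weeks over all members. In the stricter set, cut on 3 of these genes, they summed to 12461 and 13203 against 11244 and 9442. Their median log2 ratio was -0.30 there in place of -0.70. In that set Kcnj8 was still at least 2-fold lower at 16 weeks, and Acta2 was at least 2-fold higher.

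Markers of other cells were read in the members. Lum and Pdgfra were at 0 by the rule, which also limited Pecam1, Cdh5, Kdr, Emcn, Epcam, Krt8, Krt18 and Krt5. The fibroblast, endothelial and epithelial sums are therefore partly set by the selection. Summed over each marker list, mural cells held 27.2 to 94.8 CPM of endothelial markers, and 1 cell gave 74.2% of the Cdh5 UMIs. Their epithelial markers summed to 1296 to 2068 CPM, against 4670 to 12368 in epithelial cells. The fibroblast list summed to 375 and 433 CPM at 1 week and to 678 and 731 at 16 weeks, the haematopoietic list to 88.3 and 71.1 and then 336 and 475, and the thymocyte list to 135 and 82.0 and then 31.6 and 65.3. Erythroid markers stood at 37.4 to 71.2 and mesothelial markers at 8.62 to 45.4 CPM. Transcripts of thymic epithelium (a list of 10, among them Psmb11, Prss16 and Ccl25) summed to 4091 and 3109 CPM in mural cells at 1 week and to 5923 and 5482 at 16 weeks. They summed to 2711 and 2762 and then 1072 and 1200 in fibroblasts, and to 2238 and 2466 and then 1508 and 1476 in endothelial cells of the same wells. In the stricter set the 16-week wells stood at 1403 and 2592, and their epithelial markers at 498 and 1035. Members of both ages thus held more epithelial RNA than the other non-epithelial classes of the same wells. At 16 weeks the members outside the stricter set held most of all, while at 1 week the stricter set still stood at 4074 and 3107 CPM. The source of this RNA was not tested.

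**Figure D1:**
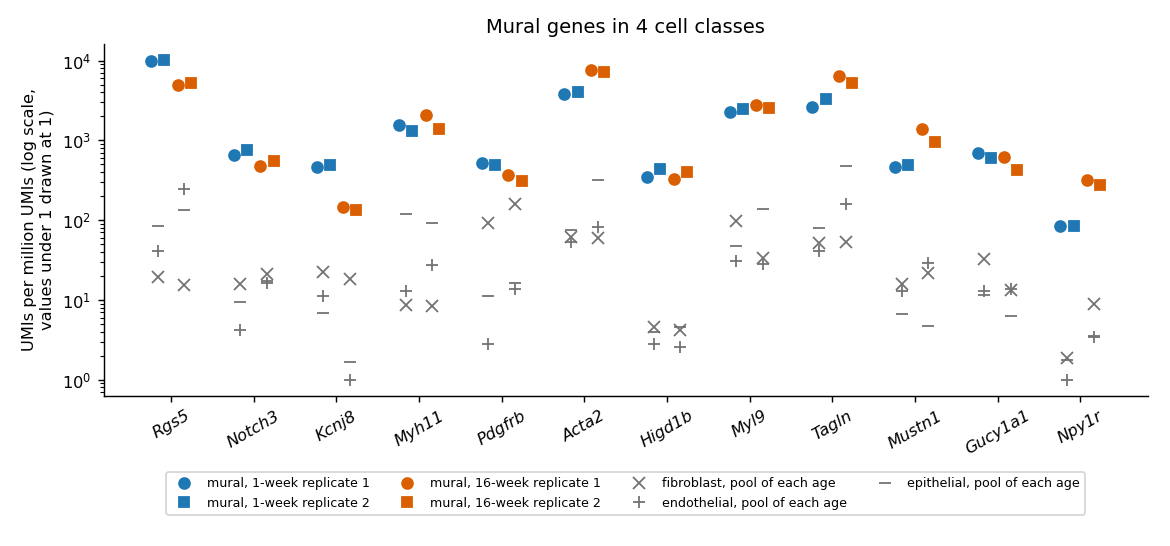
CPM (log scale) of mural genes in mural cells, with 1 point per library, and in fibroblasts, endothelial and epithelial cells, with 1 point per pool. Values of these other classes under 1 are drawn at 1. The 6 genes of the rule chose the mural cells, and the mural points of Rgs5 sit at 4906 to 10184 CPM, above every other class.

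Beyond the 6 genes of the rule, 20 genes were chosen for the largest ratio of mural cells over the highest other class in the library where that ratio was lowest, among genes with at least 50 mural UMIs. They were Higd1b, Tagln, Itga7, Gucy1a1, Mustn1, Lmod1, Cox4i2, Myl9, Nrip2, Olfr558, Npy1r, Kcnab1, Atp1b2, Gucy1b1, Rgs7bp, Gm13889, Myom1, Rbpms2, Slc38a11 and Cspg4. The cells were chosen on RNA, so these ratios are a description with no test. Higd1b and Cox4i2, which act in the mitochondrial response to low oxygen, stood at 325 to 432 and at 190 to 526 CPM in mural cells. Higd1b reached at most 4.6 CPM in the pooled cells of any other class.

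Several of these genes set vessel tone. Gucy1a1 and Gucy1b1, the subunits of the soluble guanylate cyclase that responds to nitric oxide, stood at 428 to 704 and 261 to 469 CPM. Npy1r, a receptor for neuropeptide Y from sympathetic nerves, stood at 85.5 and 84.7 CPM at 1 week and at 322 and 274 at 16 weeks. Cspg4, the NG2 proteoglycan used as a pericyte marker, stood at 163 to 256 CPM. Mcam, which encodes CD146, stood at 218 to 385 CPM in mural cells against 3.0 to 4.5 in pooled fibroblasts and 64.0 to 144 in pooled endothelial cells.

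Kcnj8 and Myh11 divided the mural cells. Cells with a Kcnj8 UMI and no Myh11 UMI are called the Kcnj8 side, and those with the reverse the Myh11 side. The Kcnj8 side held 17 and 21 cells at 1 week and 3 and 4 at 16 weeks. The Myh11 side held 28 and 27 cells at 1 week and 23 and 45 at 16 weeks. Both genes were detected in 20 and 19 cells at 1 week and in 6 and 13 at 16 weeks, and neither was in 6 and 6 and then 2 and 5 cells. Of the 58 cells with both genes, 28 held more Kcnj8, 24 more Myh11 and 6 as many of each, and 12 held at least 4 UMIs of each.

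The Kcnj8 side made up 26.4% of the mural cells of the 1-week pool (exact 95% binomial interval 19.4% to 34.4%, counting error only) and 6.93% of those of the 16-week pool (2.83% to 13.8%). The Myh11 side made up 38.2% (30.2% to 46.7%) and 67.3% (57.3% to 76.3%). For both sides the wells of an age lay closer to each other than to the other age, at 23.9% and 28.8% against 8.82% and 5.97% for the Kcnj8 side and at 39.4% and 37.0% against 67.6% and 67.2% for the Myh11 side. After each cell was thinned to 2000 UMIs, the Kcnj8 side stood at 33.3% and 5.94% and the Myh11 side at 43.8% and 64.4%. In the thinned cells Kcnj8 was found in 40.3% of mural cells at 1 week and 12.9% at 16 weeks. It was found in 2.26% and 0.375% of epithelial cells and in 2.45% and 2.62% of fibroblasts. Myh11 was found in 50.7% and 71.3% of thinned mural cells, against 20.6% and 15.4% of epithelial cells and 5.52% and 1.92% of fibroblasts, so a share of cells with a single Myh11 UMI has that much background. Before thinning, 53.5% and 25.7% of mural cells held Kcnj8 and 65.3% and 86.1% held Myh11.

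What else the sides held was read at 1 week, where the Kcnj8 side has 38 cells and the Myh11 side 55. At 16 weeks the Kcnj8 side is 7 cells, in which fibroblast-list and matrix genes stood high (C3 at 3105, Postn at 3738 and Col3a1 at 1959 CPM), so 16-week transcripts of that side are given only in the plot of side ratios. Among 6640 genes with at least 50 UMIs in mural cells, 6.31% were at least 2-fold higher on the Kcnj8 side and 8.58% on the Myh11 side, with a median log2 ratio of 0.07. Since the sides were split on RNA of the same cells, these ratios are a description too.

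Of the 10 genes of the pericyte list, 8 (Kcnj8 itself among them) were at least 2-fold higher on the Kcnj8 side and none on the Myh11 side, with a median log2 ratio of 1.84. Abcc9, the sulfonylurea receptor that completes the Kcnj8 channel (chr6:142587862-142702315, minus strand), stood at 1006 and 752 CPM on the Kcnj8 side of the 1-week wells and at 33.5 and 30.8 on the Myh11 side. Steap4, a metalloreductase, stood at 525 and 590 against 44.7 and 27.4. Art3, an ADP-ribosyltransferase family member, stood at 306 and 307 against 3.72 and 13.7. Each of these 3 genes was far apart in both wells. Ndufa4l2 and Cspg4 were the pericyte genes that did not differ 2-fold, Cspg4 being at 248 CPM on the Kcnj8 side and 305 on the Myh11 side.

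Over all libraries, the other genes of the Kcnj8 side with the largest ratios were Cygb, Ank2, Trpc6, Adgrf5, Cavin2, Agtr1a, Dennd2a, Limd2 and Hic1. The Kcnj8 side holds 38 cells of 1 week and 7 of 16 weeks, and the Myh11 side 55 and 68. The ranking thus mixes age with side, and Cavin2 was also lower at 16 weeks (below). The levels that follow are those of 1 week. Cytoglobin (Cygb) stood at 794 and 579 CPM on the Kcnj8 side against 33.5 and 47.9. Trpc6, a receptor-operated calcium channel, stood at 117 and 63.7 against 0 and 3.42, and Agtr1a, an angiotensin receptor, at 109 and 127 against 11.2 and 10.3. Adgrf5 and Cavin2 were higher in endothelial cells than in mural cells of either side (445 and 796 CPM in the pooled 1-week endothelial cells). Pdgfrb stood at 845 and 735 CPM on the Kcnj8 side and at 331 and 291 on the Myh11 side. Collagen IV chain Col4a1, of the basement membrane, stood at 3789 and 2743 against 994 and 1112. Ccl19, a chemokine read by CCR7, stood at 36.4 and 833 on the Kcnj8 side and at 59.6 and 89.0 on the Myh11 side, so the wells of the Kcnj8 side lay far apart.

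On the Myh11 side, 10 of the 11 smooth muscle genes (Myh11 among them) and 14 of 17 tested genes of the contractile list were at least 2-fold higher, with median log2 ratios of -3.26 and -2.19 for the Kcnj8 side over the Myh11 side. No gene of either list was 2-fold higher on the Kcnj8 side. Transgelin (Tagln), an actin-binding protein of smooth muscle, stood at 80.2 and 145 CPM on the Kcnj8 side and at 4225 and 6882 on the Myh11 side. Acta2 stood at 65.6 and 504 against 5632 and 7755, and leiomodin Lmod1, which nucleates actin filaments, at 21.9 and 5.79 against 469 and 506. Mylk, the myosin light chain kinase, stood at 310 against 1872 in the pooled wells, and Myl9, a regulatory light chain (chr2:156775420-156781658), at 1048 against 3304. Desmin (Des), the smooth muscle list's exception, stood at 561 against 849 and thus differed less than 2-fold.

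Over all libraries, the largest Myh11-side ratios were those of Tagln, Acta2, Crispld2, Mustn1, Nrip2, Lama5, Rgs7bp, Myom1, Ackr3, Sorbs2, Sncg and Pln. This ranking mixes age with side too, and Sncg and Pln were also higher at 16 weeks (below). The levels that follow are again those of 1 week. Crispld2 stood at 0 in both 1-week wells of the Kcnj8 side and at 871 and 883 CPM on the Myh11 side. Mustn1 stood at 21.9 and 11.6 against 860 and 979. Lama5, the laminin alpha-5 chain of the basement membrane, stood at 0 and 0 against 179 and 226, the reverse of Col4a1. Elastin (Eln) stood at 102.01 and 127 against 3986 and 3275 and fibronectin (Fn1) at 211 and 231 against 1038 and 1054. The matrix genes thus did not share a side, as 6 of 16 fibrillar and elastic matrix genes were 2-fold higher on the Kcnj8 side and 4 on the Myh11 side.

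Single regulators and signals that differed between the sides were picked after their values were seen. Of their lists, 1 of 9 Notch genes, 1 of 10 mural transcription factors and 2 of 12 thymocyte-directed factors were 2-fold higher on the Kcnj8 side, and 2, 4 and 4 on the Myh11 side. Ebf1, a transcription factor, stood at 1785 and 1678 CPM on the Kcnj8 side against 830 and 825, while Mef2c stood at 255 and 313 against 1009 and 1071 and Tbx2 at 43.7 and 116 against 328 and 373. Nrarp, a feedback target of Notch, stood at 94.7 and 145 against 391 and 534, and Heyl, another Notch target, at 168 and 122 against 40.9 and 89.0. Notch3 itself was close on both sides, at 838 and 625 against 700 and 856, and so was Rgs5, at 10056 and 9144 against 11338 and 12964. Kitl, which supports early thymocytes, stood at 58.3 and 104 against 212 and 253.

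**Figure D2:**
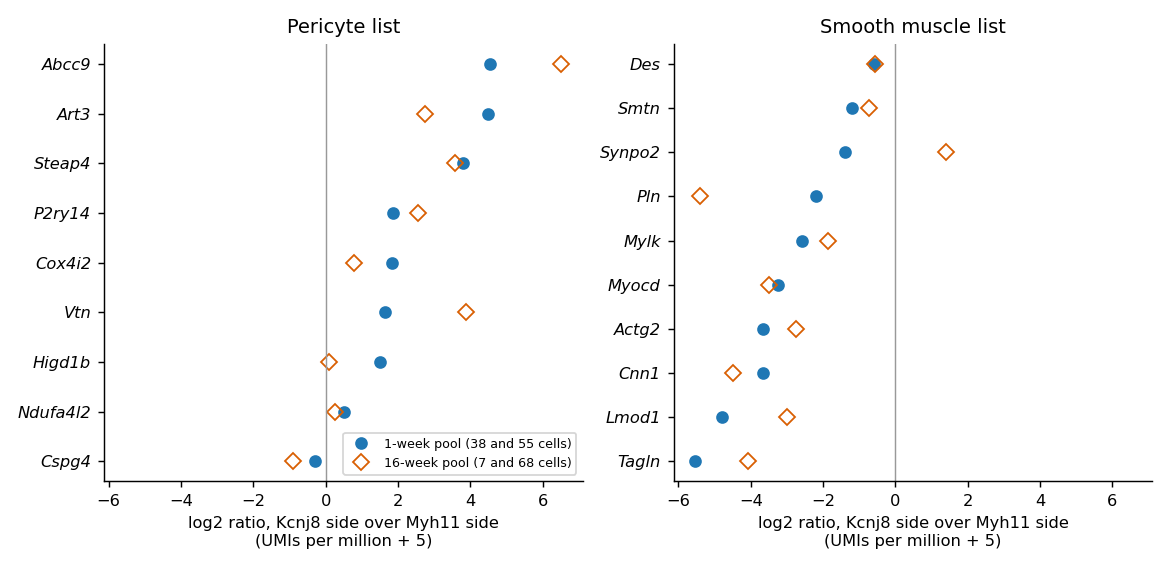
Ratio of the Kcnj8 side over the Myh11 side (log2 of CPM + 5) for the pericyte list and the smooth muscle list without Kcnj8 and Myh11, with filled circles for the 1-week pool (38 and 55 cells) and open diamonds for the 16-week pool (7 and 68 cells). At 1 week Abcc9 and Art3 lie near 4.5 and Tagln at -5.53, and Synpo2 lies on opposite sides of 0 in the pools.

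The promoters of genes from each side are shown as sequence, since Kcnj8 and Abcc9 are neighbours on chromosome 6 that were both high on the Kcnj8 side and Myl9 belongs to the contractile genes. Each window holds the 250 bases before and 50 after the start (RefSeq, GRCm38.p6), 5′ to 3′ on the gene's strand. Kcnj8 is from chr6:142571565-142571864 (minus strand), Abcc9 from chr6:142702225-142702524 (minus strand) and Myl9 from chr2:156775214-156775513 (plus strand). Capitals mark a CArG box, the motif read by serum response factor.
Kcnj8: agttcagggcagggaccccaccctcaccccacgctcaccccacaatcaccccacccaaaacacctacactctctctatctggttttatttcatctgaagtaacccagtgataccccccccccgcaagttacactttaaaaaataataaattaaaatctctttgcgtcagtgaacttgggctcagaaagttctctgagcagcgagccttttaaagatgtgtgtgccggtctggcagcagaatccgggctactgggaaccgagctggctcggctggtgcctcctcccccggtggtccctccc
Abcc9: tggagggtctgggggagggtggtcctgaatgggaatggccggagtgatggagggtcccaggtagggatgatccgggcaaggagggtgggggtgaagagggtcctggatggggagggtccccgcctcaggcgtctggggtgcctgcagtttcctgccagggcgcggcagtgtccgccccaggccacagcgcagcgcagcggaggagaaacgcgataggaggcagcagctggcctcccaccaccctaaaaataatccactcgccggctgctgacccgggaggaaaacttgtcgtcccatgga
Myl9: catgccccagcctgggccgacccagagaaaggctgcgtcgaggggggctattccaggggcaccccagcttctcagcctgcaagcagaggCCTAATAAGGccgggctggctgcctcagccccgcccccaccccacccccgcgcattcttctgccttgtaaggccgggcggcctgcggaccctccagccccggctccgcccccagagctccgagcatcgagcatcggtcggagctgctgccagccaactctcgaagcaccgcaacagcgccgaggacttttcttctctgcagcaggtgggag
The Myl9 box begins 161 bases before the start. Both strands were searched for the motif. It was in 1 of the 15 contractile genes found in the table (6.67%; 18 listed), in 0 of 7 smooth muscle genes (11 listed), in 0 of 7 pericyte genes (10 listed) and in 488 of 27025 genes in all (1.81%). The windows of Myh11, Acta2 and Tagln were not searched.

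Surface tags were not used by the rule and could be tested. CD31 and EpCAM1 are encoded by Pecam1 and Epcam, whose RNA the class rules used. Differences in these tags between classes were therefore partly set by the selection. Means over cells of each pool and class were compared with limma, with the pool as a block, so n = 2 pools. The spread is how far the class difference changed between the pools. Its 1 residual degree of freedom cannot be separated from age. limma moderated this spread with the variances of all 27 tags (2.291 degrees of freedom in total against fibroblasts). An SE, interval or p-value from limma thus rests partly on the other tags, not on a tag's own spread alone. A tag level is the log2 of the count scaled to the mean tag total, plus 1. Of 27 tags, 4 (14.8%) differed between mural cells and fibroblasts at an adjusted p under 0.05, and 8 had an unadjusted p under 0.05. Mural cells carried more CD200 and CD9 and less podoplanin and Sca1.

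CD200, an immunoglobulin-family glycoprotein that signals restraint to myeloid cells, stood at 5.95, 6.10, 5.42 and 5.15 on mural cells of the 1-week and 16-week wells, against 2.41, 3.08, 1.30 and 1.26 on fibroblasts. The classes did not overlap in any well, and the mean difference was 3.63 (SE 0.26, limma adjusted p = 0.0305). Its transcript Cd200 stood at 115, 120, 259 and 134 CPM in mural cells, against 41.2 and 15.6 in the pooled fibroblasts of 1 and 16 weeks. CD9, a tetraspanin, stood at 6.25, 6.80, 7.85 and 7.64 on mural cells and at 5.24, 4.90, 6.61 and 6.19 on fibroblasts, a difference of 1.43 (SE 0.12, limma adjusted p = 0.0305). Cd9 RNA did not follow that order at 16 weeks, with 652 and 610 CPM in mural cells and 986 in pooled fibroblasts.

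Podoplanin, a mucin-like protein of fibroblasts and lymphatic endothelium, stood at 3.99, 3.22, 4.30 and 2.88 on mural cells and at 6.20, 6.35, 6.89 and 6.16 on fibroblasts, a difference of -2.84 (SE 0.17, limma adjusted p = 0.0305). Sca1, encoded by Ly6a, stood at 5.97, 5.95, 7.73 and 7.47 on mural cells and at 7.47, 7.43, 9.11 and 9.04 on fibroblasts, a difference of -1.50 (SE 0.12, limma adjusted p = 0.0305). Both were lower on mural cells in every well. Pdpn and Ly6a RNA in mural cells stood at 10.9 to 40.2 and 22.8 to 816 CPM.

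CD200, CD9 and podoplanin kept their direction in both pools under every alternative, and Sca1 did so except with raw counts (log2 of the count plus 1). There Sca1 stood at 5.54 and 5.12 on mural cells of the 16-week wells against 5.37 and 4.93 on fibroblasts, so it was higher on mural cells at 16 weeks, and the mean difference over both pools was -0.03. The call held in fewer settings. No tag passed with raw counts, without the second 1-week well, without the first 16-week well, in mural cells with at least 5 UMIs of the 3 genes or in the stricter set. The lower tag totals of fibroblasts enter the scaled levels, and their part in the differences was not tested.

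CD49a, integrin alpha-1 that binds collagen IV, differed in size without passing. It stood at 10.11, 10.47, 8.73 and 8.34 on mural cells and at 6.59, 6.53, 7.48 and 7.51 on fibroblasts, a difference of 2.35 (interval -1.16 to 5.87, limma adjusted p = 0.227). Its transcript Itga1 stood at 702 and 702 CPM in mural cells at 1 week and at 345 and 357 at 16 weeks, so tag and transcript were both lower in the older pool. In the stricter set the tag stood at 10.20 and 10.59 against 10.05 and 9.25, and its age difference was -0.89 in place of -1.82. The 25 older members outside that set stood at 5.34 in the pool.

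Against endothelial cells, 0 of 27 tags passed (0%), 15 had an unadjusted p under 0.05, and the smallest adjusted p was 0.0608. CD31, the endothelial tag encoded by Pecam1, stood at 2.31, 2.30, 2.23 and 1.38 on mural cells and at 10.19, 10.13, 8.96 and 8.10 on endothelial cells, a difference of -7.31 (interval -8.98 to -5.64, limma adjusted p = 0.0608). CD9 was 2.58 higher on mural cells (interval 1.70 to 3.46, limma adjusted p = 0.0608), and no well of the classes overlapped for either tag. The tag of EpCAM1, a protein of epithelium, had a median raw count of 3.5 to 9 on mural cells, 3 to 9 on fibroblasts and 55 to 152.5 on epithelial cells. Its difference between mural and endothelial cells was -0.16, with a limma interval that spanned 0 (-1.41 to 1.10).

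The CD146 tag was low on every class. It stood at 0.25 to 0.43 on mural cells, where 8.82% to 12.3% of cells had a count, and at 0.79 to 1.02 on endothelial cells, where 19.8% to 30.8% did and the level was above that of mural cells in every well. Mcam RNA was at 692 UMIs over mural cells, far above its level in fibroblasts. The antibody is a clone raised against the human protein and described as cross-reactive, and no count of it separated mural cells from fibroblasts (-0.15, interval -0.66 to 0.36).

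**Figure D3:**
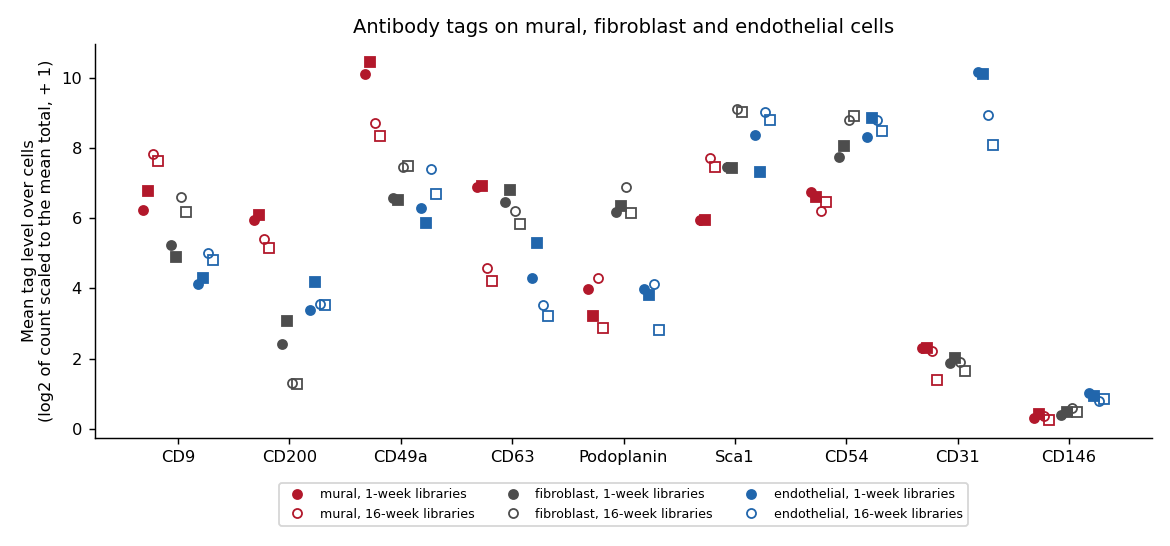
Mean tag level (log2 of the count scaled to the mean tag total, plus 1) of 9 tags on mural, fibroblast and endothelial cells, with circles for the first and squares for the second well, filled at 1 week and open at 16 weeks. Mural cells lie above fibroblasts for CD9 and CD200 and below them for podoplanin and Sca1 in all 4 wells, and CD146 lies at 0.25 to 0.59 in mural cells and fibroblasts and at 0.79 to 1.02 in endothelial cells.

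Between the Kcnj8 and Myh11 sides, the tag test could not be fitted as planned, because it asked for 20 cells a side and pool and the 16-week Kcnj8 side has 7. With 5 cells a side and pool, a limit set after the data were seen, 0 of 27 tags passed and 1 had an unadjusted p under 0.05 (limma, smallest adjusted p = 0.516). The values are given as they stood in the wells, the 16-week Kcnj8 side being the 3 and 4 cells in which fibroblast and matrix transcripts stood high. CD9 stood at 4.72 and 4.55 on the Kcnj8 side at 1 week and at 7.62 and 9.56 on the Myh11 side. At 16 weeks it stood at 4.37 and 8.23 against 7.96 and 7.98, so the second 16-week well went the other way. CD200 stood at 4.89 and 4.95 against 6.71 and 7.13 at 1 week and at 5.50 and 5.16 against 5.55 and 5.68 at 16 weeks.

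CD63 and CD49a ran the other way. CD63, a tetraspanin of late endosomes, stood at 7.74 and 7.78 on the Kcnj8 side against 6.06 and 5.67 on the Myh11 side at 1 week, and at 7.49 and 6.80 against 3.65 and 3.66 at 16 weeks. CD49a stood at 11.05 and 10.93 against 9.11 and 10.13, and at 9.28 and 9.55 against 8.63 and 8.08. The Kcnj8 side had the higher mean of both tags in every well on this scale. With raw counts (log2 of the count plus 1) that held for CD63, while CD49a stood lower on the Kcnj8 side in both 16-week wells, at 4.77 and 5.53 against 6.78 and 6.02. Raw CD9 was lower on the Kcnj8 side in every well, at 4.28 against 5.98 in the second 16-week well. The transcripts had the same order in the pooled 1-week wells, with Cd9 at 77.4 CPM on the Kcnj8 side and 499 on the Myh11 side, Cd200 at 71.0 and 134, Cd63 at 839 and 374 and Itga1 at 1048 and 424.

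Another split, by whether the other pericyte genes held more UMIs than the other smooth muscle genes, put 5 and 9 cells of the 16-week wells on the pericyte side. With it 0 of 27 tags passed and 2 had an unadjusted p under 0.05 (limma, smallest adjusted p = 0.333). CD49a then stood at 8.50 and 8.68 on the pericyte side at 16 weeks against 8.97 and 8.55, so the first well went the other way. At 16 weeks CD63 stood at 5.39 and 5.07 against 4.53 and 4.17, a smaller distance than between the Kcnj8 and Myh11 sides, and raw counts reversed it in the first well (2.01 against 2.96). CD9 stood at 4.78, 4.75, 4.45 and 6.76 on the pericyte side and at 7.86, 8.67, 8.80 and 8.03 on the smooth muscle side, and was lower on the pericyte side in every well.

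**Figure D4:**
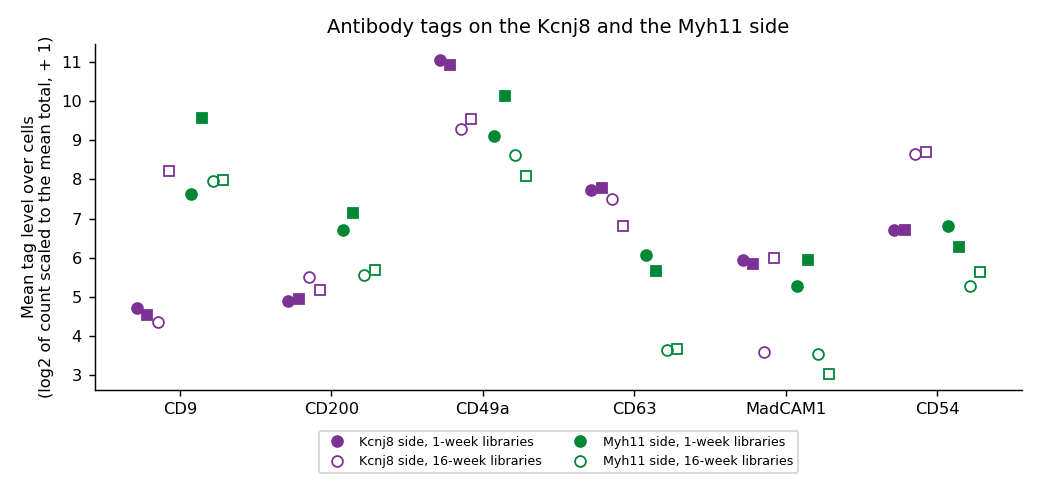
Mean tag level (log2 of the count scaled to the mean tag total, plus 1) on the Kcnj8 side and the Myh11 side of the mural cells, with 1 point per well. On this scale CD63 and CD49a are higher on the Kcnj8 side in all 4 wells (with raw counts CD49a is lower in both 16-week wells), 3 and 4 cells of that side standing behind the 16-week points, and CD9 is higher on the Myh11 side in 3 of the wells.

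Mural cells made up 3.85% and 5.10% of all cells in the 1-week wells and 1.75% and 1.41% in the 16-week wells. The sort fixed the ratio of EpCAM1-positive to EpCAM1-negative cells, so the share among mural, fibroblast and endothelial cells is also given. It was 39.7% and 42.7% at 1 week and 8.06% and 6.91% at 16 weeks, or 41.1% (exact 95% binomial interval 35.9% to 46.5%) and 7.26% (5.95% to 8.75%) in the pools. The counts behind it are 163 fibroblasts in the 1-week pool and 1145 in the 16-week pool, with 43 and 145 endothelial cells. With Pdgfra and Lum allowed in cells that held at least 10 times as many UMIs of Rgs5, Notch3 and Myh11, the shares were 51.6% and 10.6%. The younger wells were above the older in each form of the share, with a single pool of mice per age.

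Between the ages, a gene of the mural cells counted as higher or lower where its ratio (CPM plus 5) was at least 2-fold and both wells of an age lay above both of the other. Of 6640 genes, 331 (4.98%) were higher at 16 weeks and 368 (5.54%) lower, and the median log2 ratio was -0.08. Of the lists, 7 of 10 pericyte, 8 of 15 basement membrane, 14 of 16 cell cycle and 6 of 9 imprinted genes were lower, and 8 of 16 MHC and interferon genes and 4 of 17 contractile genes were higher. The words higher and lower below refer to this rule and to 1 pool of mice per age, with no test. For the counts in narrower sets, 271 of 6043 genes were higher and 398 lower in the stricter set. In mural cells with a Myh11 UMI, 284 of 5731 were higher and 312 lower.

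Of 10 pericyte genes 7 were lower and none higher (median log2 ratio -1.22), namely Kcnj8, Abcc9, Cox4i2, Ndufa4l2, Vtn, Steap4 and Art3. Abcc9 stood at 420 and 385 CPM at 1 week and at 198 and 98.0 at 16 weeks, and Steap4 at 224 and 245 against 101 and 78.0. In the stricter set 5 of 10 were lower, Cox4i2 and Ndufa4l2 having left the call. In mural cells with a Myh11 UMI, 6 of the 9 tested were lower, Kcnj8 among them (median -1.11), and 39 of 94 of those cells held Kcnj8 too at 1 week and 19 of 87 at 16 weeks. Higd1b and Cspg4 stood at 345, 432, 325 and 406 and at 256, 236, 221 and 163 CPM and were not called.

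Smooth muscle genes went the other way in part. Of 11, 3 were higher (Cnn1, Synpo2 and Pln) and 1 lower (Actg2), with a median of 0.92, and of 17 tested contractile genes 4 were higher (Ppp1r12b in addition) and 1 lower, with a median of 0.68. In the stricter set 7 of 11 and 8 of 17 were higher, as Tagln, Lmod1, Smtn and Myocd joined. In mural cells with a Myh11 UMI only Cnn1 and Pln were, 2 of 11 and 2 of 17 (medians 0.65 and 0.49), and in those without one the medians were -0.22 and -0.49. Calponin Cnn1 stood at 25.6 and 27.3 CPM at 1 week and at 161 and 56.3 at 16 weeks. Tagln stood at 2600 and 3329 against 6325 and 5232 and did not reach 2-fold over all mural cells.

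Pln was the contractile gene that stood furthest apart. It encodes phospholamban, which restrains the calcium pump of the sarcoplasmic reticulum, and stood at 12.8 and 1.37 CPM at 1 week and at 227 and 127 at 16 weeks (log2 ratio 3.83). It was detected in 5 of 144 mural cells at 1 week and in 30 of 101 at 16 weeks. Fibroblasts, endothelial and epithelial cells held at most 2.9 CPM in either pool. Within the Myh11 side Pln stood at 17.8 in the 1-week pool and 207 in the 16-week pool. Sncg, gamma-synuclein, had a similar pattern, at 51.3 and 56.0 against 920 and 604 over all mural cells and at 125 against 891 within the Myh11 side, and its level in pooled endothelial cells was 45.3 and 270.

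Matrix genes were mostly on the lower side. Of 15 basement membrane genes 8 were lower and none higher (median -1.001), with Col4a1 at 2077 and 1865 CPM at 1 week and 520 and 359 at 16 weeks and Col4a2 at 1125 and 1178 against 276 and 210.5. The sum of that list stood lower at 16 weeks in fibroblasts too (11635 and 11998 against 7332 and 7100 CPM). The same held in endothelial cells (13165 and 10536 against 4472 and 4700). Of 16 fibrillar and elastic genes 9 were lower and none higher (median -1.12), Lox being higher in the stricter set, and in mural cells without a Myh11 UMI the median was 0.58. The ratios of Col4a1 and Col4a2 within mural cells with a Myh11 UMI were -2.00 and -2.02 on the log2 scale, against -2.21 and -2.26 over all mural cells. Col1a1 and Col3a1, which fibroblasts carry at far higher levels, stood at 218 and 273 against 101 and 113 and at 1038 and 1074 against 618 and 419 in mural cells.

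Genes of elastic fibres were among the 15 genes with the lowest ratios. Eln stood at 1691 and 2877 CPM at 1 week and at 167 and 156 at 16 weeks (log2 ratio -3.80), and 30.7% of its mural UMIs came from 1 cell. Its log2 ratio was -2.48 in the stricter set. Fbn2, a fibrillin of developing elastic fibres, stood at 96.9 and 120 against 5.75 and 5.44, and Mfap2, a microfibril protein, at 72.6 and 98.4 against 0 and 7.26. Fbn2 and Mfap2 stood lower at 16 weeks in pooled fibroblasts too, at 310 and 30.9 and at 582 and 59.2 CPM.

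The cell cycle list had 14 of 16 tested genes lower (median -1.98) and none higher. Its sum stood lower at 16 weeks in fibroblasts too (2161 and 888 against 453 and 468 CPM). The same held in endothelial cells (3809 and 1574 against 662 and 678). Mki67 was found in 37 of 144 mural cells at 1 week and 5 of 101 at 16 weeks, and Top2a, which untangles DNA, in 37 and 12. Prc1, Tpx2, Cenpf and the histone genes Hist1h2ap and Hist1h1b were among the 15 genes with the lowest ratios (-2.58 to -3.10 on the log2 scale), although 1 cell held 44.2% of the Hist1h2ap UMIs and 1 cell 45.6% of those of Hist1h1b.

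Imprinted and early growth genes gave the 2 lowest of those 15 ratios. Of 9 tested 6 were lower (H19, Dlk1, Meg3, Gpc3, Ndn and Grb10) and 1 higher (Plagl1), with a median of -1.12. In the stricter set 5 of 8 were lower and none higher, as Ndn left the call and Plagl1 had fewer than 50 UMIs. Dlk1, a Notch-like ligand protein of fetal tissue, stood at 362 and 443 CPM at 1 week and at 14.4 and 3.63 at 16 weeks (log2 ratio -5.00), in 87 of 144 cells against 4 of 101. Meg3, a long non-coding RNA of the same imprinted domain, stood at 2423 and 2150 against 155 and 131 (-3.98), in 140 of 144 cells against 35 of 101, and Rian, also of that domain, at 238 and 200 against 20.1 and 18.1 (-3.22). H19 stood at 55.6 and 46.5 against 0 and 1.81 (-3.19). All 4 genes were lower at 16 weeks in pooled fibroblasts as well, Dlk1 from 456 to 2.6 and Meg3 from 3310 to 326 CPM.

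The 15 lowest genes were completed by Rgs16, Cd83 and Cavin2. Rgs16, a regulator of G-protein signalling, stood at 573 and 798 CPM at 1 week and at 83.3 and 76.2 at 16 weeks (-3.04). In mural cells without a Myh11 UMI (50 and 14 cells) the log2 ratio of Rgs16 was -0.01, and those of Eln, Tpx2 and Sncg were -0.41, -0.27 and 0.43. Cd83 stood at 74.1 and 58.8 against 5.75 and 5.44 (-2.75), and Cavin2, a coat protein of caveolae, at 96.9 and 118 against 14.4 and 12.7 (-2.62).

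Among signalling genes few moved, beside 4.98% higher and 5.54% lower over all genes. Such small counts say little about these lists as sets. Of 9 Notch pathway genes Hey2 was higher (31.3 and 27.3 against 77.6 and 101.6) and Nrarp lower (292 and 336 against 121 and 96.2), with a median of -0.25. Of 12 ion channel and vasoactive genes Rgs4 was higher and Abcc9 and S1pr3, a sphingosine-1-phosphate receptor, were lower (median -0.51). Rgs4 stood at 204 and 247 against 655 and 501 and S1pr3 at 137 and 197 against 71.8 and 54.4. The 1 PDGF ligand tested, Pdgfa, was not called (median 0.10). Of 10 mural transcription factors Ebf1 was lower, at 1298 and 1290 against 566 and 639 (median -0.43). Ebf1 was not called and Foxc1 was higher in the stricter set.

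Of 12 factors that reach thymocytes, 2 were higher, 1 lower and 9 not called, against 4.98% higher and 5.54% lower over all genes. Ccl19 (130 and 312 against 517 and 557) and Il33 (4.27 and 10.9 against 34.5 and 58.1) were higher and Cxcl12 (275 and 299 against 141 and 103) was lower, with a median of 0.03 whose sign was kept in 8 of 15 alternatives. Il33 had too few UMIs to be tested in the stricter set. Of 6 chemokines Ccl8, Ccl11 and Cxcl16 were higher and Ccl2, Cxcl1 and Cxcl10 lower (median -0.48), and in the stricter set Ccl11 was not called, Ccl8 and Cxcl16 were below 50 UMIs, the 3 lower ones were called, and the median of the 4 tested was -2.00. Cxcl1, which draws neutrophils, stood at 432 and 610 against 138 and 107, and Cxcl10, an interferon target, at 506 and 518 against 69.0 and 163. Of 12 immediate early genes Hspa1a and Hspa1b were higher and Fosb, Atf3, Ier2 and Nr4a1 lower (median -0.82), of which Fosb and Ier2 left the call in the stricter set. Hspa1a, a heat shock protein that cell dissociation can induce, stood at 372 and 540 against 2184 and 2259 in mural cells and at 81.3 and 2206 in the pooled fibroblasts of 1 and 16 weeks.

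MHC and interferon genes were higher for 8 of 16 and lower for 1, Irf1 (median 1.15). The class I genes H2-K1 and B2m stood at 443 and 488 against 2058 and 2441 and at 523 and 660 against 1994 and 2181 CPM. Class II transcripts are those of epithelial and antigen-presenting cells, and Cd74 stood at 1392 and 1141 against 3722 and 4633 in mural cells and at 8292 and 10124 in pooled epithelial cells. Cd74, Psmb8, Irf7 and H2-Ab1 lost the call in the stricter set, where 4 genes were higher and 2 lower and the median was 0.50. The sum over the list there was 5119 and 4948 CPM at 1 week and 6035 and 13733 at 16 weeks. The haematopoietic markers listed above were higher at 16 weeks alongside these genes, 2 of 2 tested, and their part in these values was not tested.

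Among the 15 genes with the highest ratios, several were genes that other cells hold in larger amount or that 1 cell supplied. Fcgbp stood at 25.6 and 15.03 CPM at 1 week and at 776 and 1769 at 16 weeks (log2 ratio 5.78), with 96.3 and 2737 in pooled epithelial cells. C3, of complement, stood at 19.9 and 27.3 against 816 and 1054 (5.07), with 314 and 4916 in pooled fibroblasts, and Apoe at 81.2 and 108 against 2201 and 1454 (4.13), with 751 and 3034. Chil3 was at 0 in both 1-week wells and at least 65.4-fold higher at 16 weeks by a floor of 3 counts over the pool, but 78.0% of its UMIs lay in 1 cell. A single cell held 60.9% of the Dapl1, 60.0% of the Clca3a2, 77.6% of the Chil4, 96.8% of the Gatm, 55.7% of the AW112010 and 42.9% of the Gpx3 UMIs. The remaining genes were Ly6a, Cd24a and Timp4 beside Pln and Sncg. Ly6a stood at 22.8 and 31.4 against 816 and 720, in the same direction as its tag Sca1. The 25 older members outside the stricter set held 536 of the 681 Ly6a UMIs of the 16-week pool (2012 and 2093 CPM in the wells), and in the stricter set Ly6a stood at 22.9 and 31.3 against 176 and 255 (log2 ratio 2.85 in place of 4.57). Cd24a, Chil3, Chil4 and Gatm had too few UMIs there to be tested.

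The tag genes had 4 of 12 tested higher (Ly6d, Pdpn, Ly6a and Epcam) and 2 lower (Cd83 and Cd274), with a median of 0.24. In the stricter set Cd9, Ly6d and Ly6a were higher and Icam1, Cd83 and Cd274 lower, with a median of -0.04, and the sign of the median was kept in 6 of 15 alternatives (-0.21 to 0.68). The list of thymic epithelial transcripts had 4 of 10 higher and 5 lower, of the epithelial markers 2 of 4 were higher and 1 lower (median 0.23, and -0.28 in the stricter set), and of the fibroblast markers Dcn was higher and Col1a1 lower. Those lists moved with age in the mural cells too, and their part in any single gene above was not tested.

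**Figure D5:**
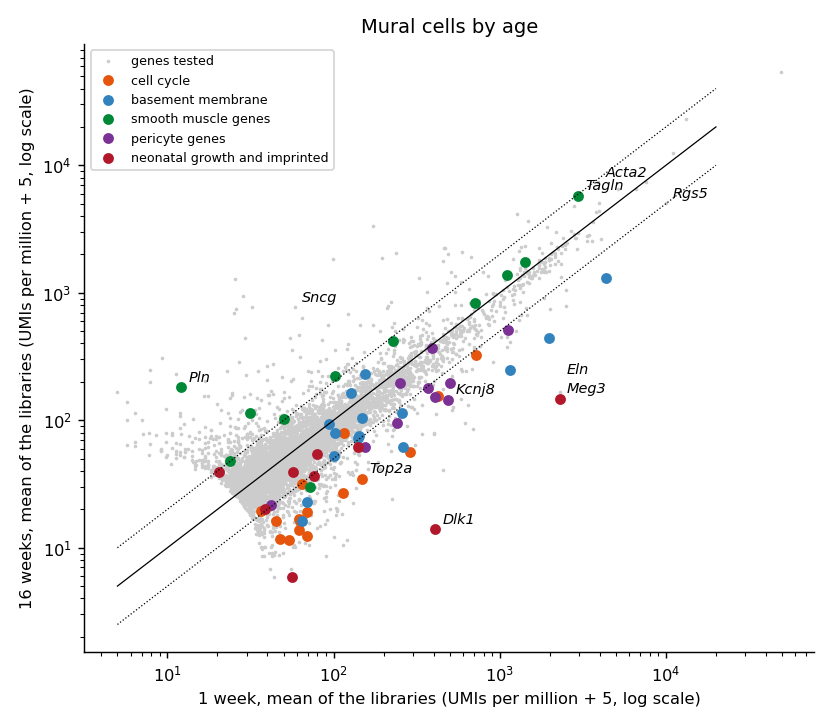
CPM plus 5 in mural cells at 1 week (horizontal) and 16 weeks (vertical), mean of the wells, on log axes, with 1 point for each gene tested with genes of 5 lists coloured and some named. Dlk1, Meg3 and Eln lie far below the diagonal, and Pln and Sncg far above it, and the dotted lines mark a 2-fold difference.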

How the data were processed

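CITE-seq mRNA and antibody-tag counts were used from 4 libraries, the wells of 1 pool of mice per age. Per the labels and methods, the authors demultiplexed and counted the mRNA with STARsolo (2.7.9a, mm10, Ensembl 102), and the deposited tables hold raw counts, UMIs per gene and tag counts per cell, not normalized, for cells with at least 2000 UMIs. The kit version differs between the labels and the methods. Symbols and positions came from GENCODE M21 (55141 of 55487 identifiers matched). No column was left unused.

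Mural members and the gene lists were chosen with earlier results of these data known. No clustering was run. Counts were summed per library and class, scaled to UMIs per 1000000 (CPM), and log2 ratios were taken after adding 5, for genes with at least 50 mural UMIs. RNA was described without a test, since RNA chose the cells and each age has 1 pool. The counting intervals are exact binomial and cover counting error only. Tag levels (log2 of the count divided by the cell's total times the mean total, plus 1) were averaged per pool and class with at least 20 cells and tested with limma 3.58.1 (R 4.3.3), pool as a block, two-sided, Benjamini-Hochberg over 27 tags. The variances of that test were moderated over the tags. Scrublet (scanpy 1.11.5, 0.8% per 1000 cells) marked doublets, which were kept in the main values. The fold rule and the limma test were tested on simulated data.

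Named genes were those of the rule, the 15 with the largest age ratios each way (without gene models, mitochondrial, ribosomal and other cells' marker genes), the 20 with the largest ratio to other classes, the 12 with the largest side ratios each way, and the largest of each list. Side ratios for that choice were over all libraries, with the same sign in both pools. A few others were chosen after their values were seen (the further genes compared between the sides, and Mcam). Alternatives were the scaling (edgeR 4.0.16 TMM and DESeq2 1.42.0 size factors, scaling only), the added constant, the low-count filter, cell weighting, tag normalization, doublets, each well left out, thinning to 2000 UMIs, and narrower or wider mural rules. Those on Pdgfra and Lum, the stricter set (2 UMIs per 1000) and the limit of 5 cells a side were chosen after seeing the data. The result for a further marker list is not reported here.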

Additional observations from a re-analysis of the deposited data

Results flagged for a closer look

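For 7 tags the wells of 1 age lay on the opposite side of 0 from the wells of the other age, comparing mural cells with another class. With 27 tags and 1 pool of mice per age, the difference between ages was not tested for any of them. Against fibroblasts, CD63 stood 0.43 and 0.10 higher on mural cells at 1 week and -1.63 and -1.63 at 16 weeks (pools 0.27 and -1.61, log2 scale). The CD63 level of fibroblasts was 6.48, 6.81, 6.22 and 5.84 in the 4 wells, and that of mural cells was 6.90, 6.91, 4.59 and 4.21. The Kcnj8 side, on which CD63 was higher, was 26.4% of the mural cells of the 1-week pool and 6.93% of the 16-week pool, and within the Myh11 side the tag stood at 6.06 and 5.67 and then 3.65 and 3.66. Cd63 RNA in mural cells stood at 558, 611, 572 and 506 CPM.

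MadCAM1 differed from fibroblasts by 0.05 and 0.46 at 1 week and by -1.07 and -0.83 at 16 weeks (pool value -0.88), and CD133 by 0.26 and 0.05 and then -0.44 and -0.69 (pool value -0.60). Madcam1 RNA was at 6 UMIs over all 245 mural cells. Against endothelial cells, CD40 differed by 0.07 and 0.03 and then -0.40 and -0.45 (pool value -0.43), CD80 by 0.10 and 0.45 and then -0.29 and -0.16 (-0.20), EpCAM1 by 0.27 and 0.31 and then -0.79 and -0.42 (-0.55), and podoplanin by -0.003 and -0.60 and then 0.18 and 0.07 (0.060). With raw counts the wells of the ages stayed on opposite sides of 0 for CD63 (4.04 and 4.01 against 2.82 and 3.02 in fibroblasts, then 2.78 and 2.30 against 3.13 and 2.64), and for none of the other tags named here. MadCAM1 was then higher on mural cells than on fibroblasts in every well, and CD80 and EpCAM1 higher than on endothelial cells.

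Gatm, of creatine synthesis, was higher at 16 weeks in mural cells (log2 ratio 4.27) and lower in fibroblasts (-2.40), a difference that was not tested. A single mural cell gave 96.8% of its mural UMIs, and the ratio was 0.60 without the first 16-week well, 0.38 with at least 5 UMIs of the 3 mural genes and 0.51 in the stricter set, none of them called.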

How the results depend on the processing

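With 1 pool of mice per age, no setting can separate age from pool. Relative to the values reported, the numbers of genes higher and lower at 16 weeks (331 and 368) became 1032 and 748 with no filter on low counts, of 20519 genes, so that 58.0% of called genes were higher rather than 47.4%. With edgeR TMM scaling they were 373 and 329 (53.1% higher) and with DESeq2 size factors 382 and 312 (55.04%), so which direction held more genes depended on the scaling. They became 77 and 248 of the 1425 genes that could be tested in mural cells without a Myh11 UMI, of which there are 50 and 14. Leaving out 1 well at a time gave 238 to 322 higher and 264 to 450 lower genes. Of 450 alternative values of the 30 genes named by age ratio, 416 kept the call, 34 lost it (through fewer than 50 UMIs, overlap of wells or a ratio under 2-fold) and 0 changed direction. Without 1 well the call was lost for Gatm, Chil3, Chil4 and Timp4 (first 16-week well), Clca3a2 and Dapl1 (second 16-week well), H19 (either 1-week well), Cd83 (the first) and Tpx2 (the second), of which Gatm alone fell under 2-fold (0.60). The median of a gene list changed sign in some of its 15 alternatives for the tag genes (kept in 6), the thymocyte-directed factors (8, -0.35 to 0.60), Notch (10, -0.28 to 0.22), PDGF (11, -0.32 to 0.69), epithelial (11, -2.30 to 0.57) and fibroblast markers (13, -0.28 to 2.25). It changed sign in 1 alternative for the chemokines (-2.34 to 0.38, the latter with no filter) and, in mural cells without a Myh11 UMI, for the fibrillar matrix (0.58), contractile (-0.49) and smooth muscle genes (-0.22).

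The share of mural cells (16 minus 1 week, percentage points) was -2.88 of all cells, -3.85 after thinning, -4.42 with Pdgfra and Lum allowed beside at least 10 times as many UMIs of the 3 mural genes, and -2.33 to -3.59 without 1 well. Among the 3 classes it was -33.9, -30.5 after thinning, -38.4 with Pdgfra and Lum allowed below the 3 mural genes, -41.0 with the 10-fold rule, and -32.4 to -35.4 without 1 well. The Kcnj8 side differed by -19.5 points, -27.4 after thinning, and -17.0 to -21.8 without 1 well. The Myh11 side differed by 29.1, 20.6 after thinning, 22.0 with Myh11 counted from 2 UMIs, 33.8 in the stricter set, and 27.9 to 30.3 without 1 well. The share with both genes differed by -8.27, -0.0138 after thinning, -11.4 in the stricter set, and -7.22 to -9.44 without 1 well. The share with neither was -1.40, turned to 6.80 after thinning and 5.72 with Myh11 from 2 UMIs, and was -3.12 without doublets, -3.91 in the stricter set and -0.87 to -2.45 without 1 well.

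Of the tags, 4 differed from fibroblasts as reported, 3 with a centred log ratio, 0 with raw counts, 0 with at least 5 UMIs of the 3 genes, 0 in the stricter set and 0 to 5 without 1 well. From endothelial cells 0 differed, 10 with a centred log ratio, 1 without doublets, 1 with at least 5 UMIs, and 0 to 1 without 1 well (the fit without the first 1-week well was not run, as fewer than 20 endothelial cells remained). With the library as a replicate block, 11 tags differed from fibroblasts, 18 from endothelial cells and 0 between the sides. The replicate numbers name wells of 1 pool, so that block treats technical wells as replicates and pairs nothing across ages. The cause of these shifts was not tested.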

Other observations

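The MadCAM1 tag stood at 5.61, 6.04, 3.803 and 3.34 on mural cells, while Madcam1 RNA reached 6 UMIs over the 245 cells. The Ly6D tag gave no count on mural cells and was found on at most 0.350% of the cells of any class in a well, while Ly6d RNA was at 165 UMIs in mural and 11310 in epithelial cells. Nt5e, which encodes CD73, had no UMI in mural cells. The 2 wells of the 16-week pool differed in Ccl11, a chemokine that draws eosinophils, at 1322 and 252 CPM, against 202 and 215 at 1 week, and 21.4% of its UMIs lay in 1 cell. Angpt1, the Tie2 ligand that mural cells supply to endothelium, stood at 66.9 and 67.0 CPM at 1 week and at 25.9 and 49.0 at 16 weeks and was not called.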
